A study of Homo sapiens with 12 samples.

Results

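Transcripts of the enzymes that write and erase DNA methylation were followed across single and combined inhibition of PI3K and EZH2. The set held 9 genes, listed by name for their roles, out of the 23228 genes listed in the count tables. Of these, 4 were grouped as maintenance genes (DNMT1, UHRF1, its paralog UHRF2, and HELLS). A further 2 are de novo methyltransferases (DNMT3A and DNMT3B) and 3 are TET dioxygenases (TET1, TET2 and TET3). All 9 were found and all 9 passed the filter on low counts, which kept 14189 genes for testing. The cells were C4.2B, an established human line of castration-resistant prostate cancer. Polyadenylated RNA was sequenced from 12 libraries, 3 (A, B and C) in each of 4 arms. Cells received vehicle in the DMSO arm, 0.5 µM of GDC-0941, which blocks all class I PI3K isoforms, in the GDC arm, 5 µM of GSK126, which blocks EZH2, in the GSK arm, and both at these doses in COMBO. All arms were seeded at 250000 cells per 6 cm plate and treated for 24 h with serum (10%) that was charcoal-stripped, and the GSK and COMBO cells had in addition received GSK126 for 6 days beforehand, so the GSK arms differ from GDC and DMSO in length of exposure as well as in agent. Replicates were plates of a single line seeded in triplicate, so p-values measure the spread between plates.

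DNA methylation of CpG sites is copied at each cell division. UHRF1 binds the hemimethylated DNA left behind the replication fork and recruits DNMT1, which methylates the new strand, and HELLS (also called LSH) is a chromatin remodeler that opens nucleosomal DNA to the methyltransferases. UHRF2 is the paralog of UHRF1 and does not replace it in maintenance. DNMT3A and DNMT3B place methyl groups on unmethylated sites, and the TET enzymes oxidize 5-methylcytosine to 5-hydroxymethylcytosine as a step towards its removal. Several maintenance factors are made mainly in S phase, when E2F factors drive replication genes. EZH2, the target of GSK126, methylates histone H3 at lysine 27, which is a different mark.

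Sequences around the start sites of UHRF1, HELLS, DNMT1 and UHRF2 are shown because these 4 maintenance genes parted most widely in the measurements. Each runs from 120 bases before a start site through the first 25 bases from it on, in the direction of the gene, and is taken from RefSeq on GRCh38.p14. Capitals mark E2F-type letters in the first 3 (TTTCCCGC, TTTCGCGC, TTTGCCGC or TTTGGCGC, on either strand) and the FOXO-type letters GTAAACA in UHRF2. UHRF1 lies at chr19:4909381-4909525 (+), HELLS at chr10:94545668-94545812 (+), DNMT1 at chr19:10194929-10195073 (-) and UHRF2 at chr9:6413079-6413223 (+).
UHRF1: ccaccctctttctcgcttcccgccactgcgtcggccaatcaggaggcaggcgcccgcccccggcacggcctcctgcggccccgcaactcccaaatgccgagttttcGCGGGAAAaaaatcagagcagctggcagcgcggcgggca
HELLS: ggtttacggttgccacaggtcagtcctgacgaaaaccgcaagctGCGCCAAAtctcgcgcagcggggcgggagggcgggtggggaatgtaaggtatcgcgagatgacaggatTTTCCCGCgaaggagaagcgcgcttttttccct
DNMT1: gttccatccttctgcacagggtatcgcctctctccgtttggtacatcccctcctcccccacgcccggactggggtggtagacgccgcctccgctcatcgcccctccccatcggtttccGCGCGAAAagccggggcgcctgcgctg
UHRF2: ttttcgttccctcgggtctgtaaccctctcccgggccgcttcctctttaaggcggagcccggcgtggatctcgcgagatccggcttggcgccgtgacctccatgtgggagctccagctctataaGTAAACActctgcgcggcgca
Full windows of 300 bases (250 before and 50 after each start) were searched on both strands for all 9 genes. An E2F form was present in DNMT1 (1 match), UHRF1 (1 match in each of 2 windows) and HELLS (2 matches in 1 window). The searched windows of the other 6 genes held no E2F form. For DNMT3B the only window (chr20:32779602-32779901) lies inside the gene, whose annotated span starts at 32762385. The bases around that outer start were not searched, so whether they hold an E2F form was not tested. Of 35116 RefSeq windows, 3.32% held such a form, and 3.99% of 27305 genes had it in at least 1 window. The FOXO form was present in UHRF2 and in TET2, against 3.42% of all windows. The E-box CACGTG was present in DNMT3A, TET2 and TET3, against 7.26% of all windows. The CCAAT box (letters CCAAT) was present in UHRF1, HELLS, DNMT3B, TET1 and TET3, against 34.6% of all windows. The motifs were chosen after the windows had been seen, genes differ in their number of windows (6 for DNMT3A, 1 for DNMT1), and a match is a run of letters and not a measured binding site.

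Libraries held from 8785218 to 44437751 counts in genes, with a DMSO library the deepest, so 3 counts corresponded to 0.0722 to 0.330 CPM (counts scaled to library size, here by TMM). All 9 genes exceeded that floor in all 12 libraries. Reads outside genes made up 13.7% to 15.7% of reads in DMSO and GDC, 18.5% to 19.0% in GSK and 21.0% to 23.0% in COMBO. The prostate luminal markers KLK3 (539.6 to 2011 CPM) and FOLH1 (1162 to 1735 CPM) were present in every library, as were KLK2, TMPRSS2, HOXB13, KRT8 and KRT18. Summed basal and endothelial markers did not exceed 0.355 CPM and 0.220 CPM, and neuroendocrine markers summed to 1.41 to 2.97 CPM. Summed fibroblast markers were 10.3 to 11.7 CPM in DMSO, 25.9 to 38.0 CPM in GSK and 29.3 to 48.2 CPM in COMBO, nearly all of it COL1A1, while DCN was at 0 in 7 libraries. Leukocyte markers summed to 4.84 to 9.58 CPM, nearly all of it CD68, with CD3E at 0 in all 12 libraries. The part of these values in the results was not tested.

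UHRF1 showed the deepest loss of the set. Its level was 66.5, 66.2 and 64.2 CPM in the 3 DMSO libraries and 58.2, 56.6 and 54.0 CPM in GDC. In GSK it was 16.2, 13.5 and 16.7 CPM, and in COMBO 2.21, 2.97 and 2.04 CPM, from 38, 67 and 28 counts. The 4 arms did not overlap and stepped down in the order DMSO, GDC, GSK, COMBO. How many of all tested genes have arms that separate was not counted, here or for the other genes below. Against DMSO the log2 fold change was -0.22 in GDC (adjusted p = 0.00980, SE 0.064), -2.09 in GSK (adjusted p = 1.01e-14, SE 0.079) and -4.72 in COMBO (adjusted p = 5.26e-19, SE 0.0999). The COMBO value is a 26.4-fold lower level, with a 95% interval of -4.93 to -4.51 on the log2 scale, and only 2 of the 14189 genes tested were lower in that comparison. UHRF1 lies on chromosome 19 at 4903080 to 4962154 (hg38, GENCODE 44), with the counted microRNA gene MIR4747 inside its span.

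DNMT1, the maintenance methyltransferase itself, fell in the same order. It was at 344, 354 and 335 CPM in DMSO, at 283, 274 and 269.7 CPM in GDC, at 155, 144 and 153 CPM in GSK, and at 73.8, 77.7 and 77.2 CPM in COMBO. No library of any arm overlapped with those of another. The log2 fold change was -0.32 in GDC (adjusted p = 9.72e-06, SE 0.043), -1.19 in GSK (adjusted p = 9.20e-15, SE 0.045) and -2.17 in COMBO (adjusted p = 5.56e-19, SE 0.046), the last a 4.51-fold lower level. DNMT1 (chromosome 19, 10133342 to 10231286) shares exonic bases with S1PR2 on the same strand in GENCODE 44, so reads in the shared bases are uncertain, and MIR4322 lies in its span.

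HELLS fell in all 3 inhibitor arms as well. It was at 32.7, 27.9 and 33.5 CPM in DMSO and at 21.2, 26.0 and 23.3 CPM in GDC, with a gap of under 2 CPM between the nearest libraries. It reached 9.78, 10.4 and 10.8 CPM in GSK and 4.01, 4.26 and 3.86 CPM in COMBO, so all 4 arms stayed apart. The log2 fold change was -0.41 in GDC (adjusted p = 0.000633, SE 0.084), -1.60 in GSK (adjusted p = 1.25e-11, SE 0.099) and -2.95 in COMBO (adjusted p = 1.16e-15, SE 0.107), or 7.71-fold lower in COMBO. HELLS lies on chromosome 10 at 94545329 to 94613905.

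UHRF2 went another way from its paralog. It was at 36.2, 32.9 and 33.6 CPM in DMSO, 33.7, 34.6 and 32.2 CPM in GDC, 24.3, 26.2 and 28.1 CPM in GSK and 34.4, 32.7 and 33.6 CPM in COMBO. Only the GSK libraries stood apart, below all the others. The change was -0.37 in GSK (adjusted p = 5.61e-05, SE 0.068), while the differences of -0.022 in GDC (95% interval -0.15 to 0.11, adjusted p = 0.817) and -0.022 in COMBO (-0.15 to 0.11, adjusted p = 0.753) missed the threshold. With library totals in place of TMM, the GSK difference was -0.22 (adjusted p = 0.00742), and UHRF2 was 0.19 above DMSO in COMBO (adjusted p = 0.0104). UHRF2 (chromosome 9, 6413151 to 6507054) has a named pseudogene, UHRF2P1, to which some of its reads could be lost.

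**Figure D1:**
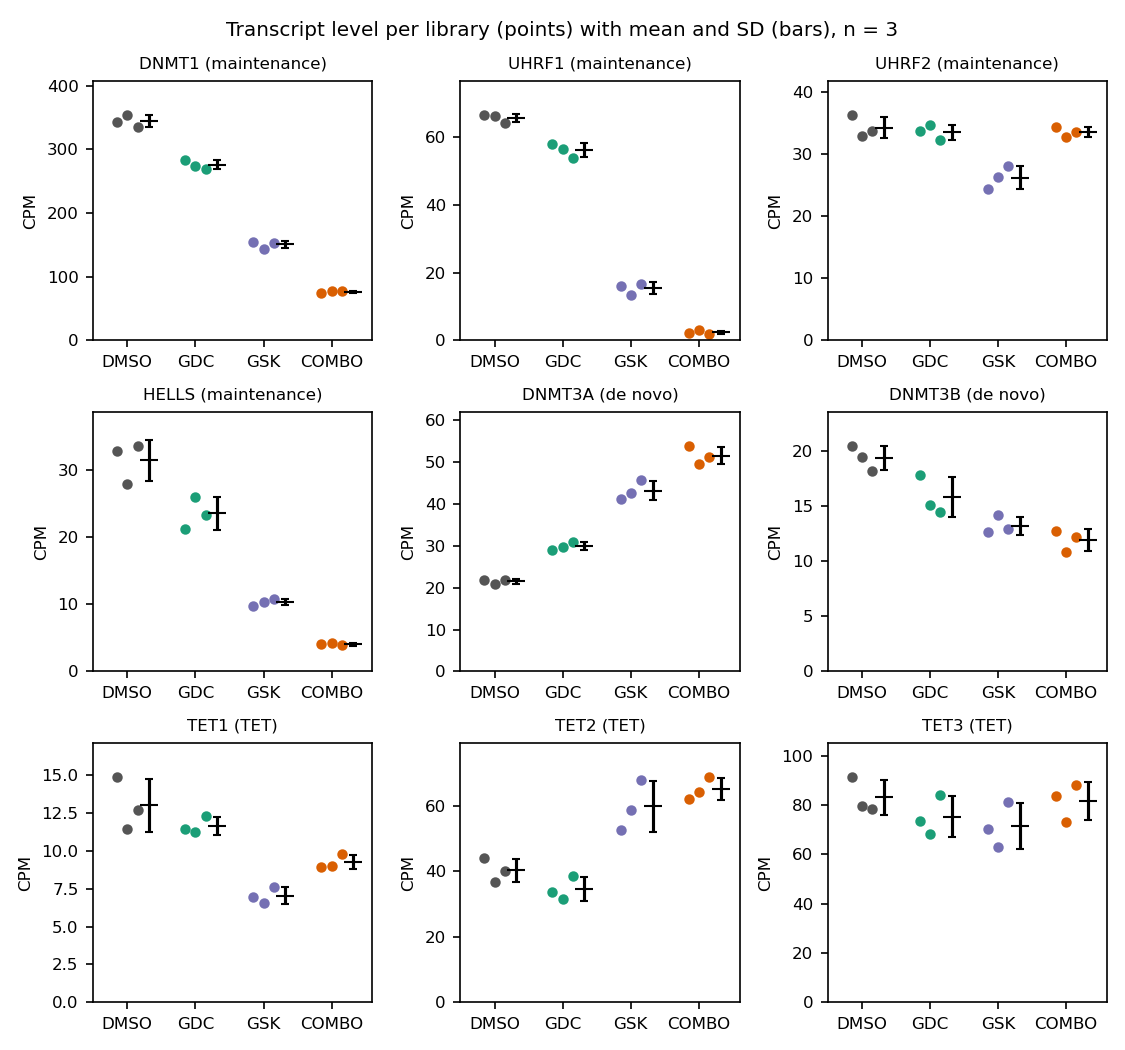
Level of each of the 9 genes in CPM (y axis, linear from 0, a separate scale for each gene) in the 12 libraries (points, colored by arm), with the mean and SD of each arm beside them (black, n = 3). UHRF1, DNMT1 and HELLS step down from DMSO to COMBO with no overlap between arms, DNMT3A steps up, UHRF2 dips in GSK alone, and the arms of TET3 overlap. The share of all tested genes whose arms separate was not counted.

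The de novo methyltransferases moved in opposite directions. DNMT3A rose in every inhibitor arm and was highest in COMBO. It was at 21.9, 20.8 and 21.9 CPM in DMSO, 29.1, 29.6 and 30.9 CPM in GDC, 41.1, 42.6 and 45.6 CPM in GSK, and 53.8, 49.6 and 51.3 CPM in COMBO. The arms stepped up without overlap. The log2 fold change was 0.47 in GDC (adjusted p = 1.10e-05, SE 0.065), 1.003 in GSK (adjusted p = 1.96e-11, SE 0.064) and 1.26 in COMBO (adjusted p = 9.76e-14, SE 0.060), which is 1.39-fold, 2.004-fold and 2.39-fold. DNMT3A lies on chromosome 2 at 25227855 to 25342590 and has a named pseudogene, DNMT3AP1, and the counted microRNA gene MIR1301 in its span.

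DNMT3B, the second de novo enzyme, was at 20.4, 19.5 and 18.2 CPM in DMSO and 17.9, 15.1 and 14.4 CPM in GDC. It was at 12.6, 14.2 and 12.9 CPM in GSK and 12.8, 10.8 and 12.2 CPM in COMBO. All GDC, GSK and COMBO libraries lay below the DMSO libraries, but GSK and COMBO overlapped each other. The change was -0.29 in GDC (adjusted p = 0.0175, SE 0.092), -0.53 in GSK (adjusted p = 7.05e-05, SE 0.098) and -0.69 in COMBO (adjusted p = 9.29e-07, SE 0.093). Without the library GDC C the GDC call was lost (-0.26, adjusted p = 0.0548). DNMT3B lies on chromosome 20 at 32762385 to 32809359. DNMT3L, the catalytically inactive cofactor of both enzymes, had at most 4 counts in any library and was not tested.

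The 3 TET genes had 3 different patterns. TET1, at 14.8, 11.5 and 12.7 CPM in DMSO and 11.4, 11.2 and 12.3 CPM in GDC, was lowest in GSK, at 6.92, 6.56 and 7.63 CPM, and intermediate in COMBO, at 8.94, 9.01 and 9.76 CPM. The GSK and COMBO libraries lay below all DMSO and GDC libraries and did not overlap each other. TET1 fell by 0.86 on the log2 scale in GSK (adjusted p = 1.15e-06, SE 0.114) and by 0.47 in COMBO (adjusted p = 0.000242, SE 0.101; -0.26 with library totals, adjusted p = 0.0209), and its difference of -0.13 in GDC missed the threshold (95% interval -0.34 to 0.077, adjusted p = 0.314). TET1 lies on chromosome 10 at 68560337 to 68694487 and has a named pseudogene, TET1P1.

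TET2 was higher in both arms that received GSK126. It was at 43.99, 36.9 and 40.0 CPM in DMSO and 33.7, 31.5 and 38.5 CPM in GDC, which overlapped. In GSK it was at 52.6, 58.7 and 68.0 CPM and in COMBO at 62.2, 64.2 and 68.7 CPM, all above DMSO. TET2 rose by 0.59 in GSK (adjusted p = 3.80e-06, SE 0.086) and by 0.70 in COMBO (adjusted p = 1.34e-07, SE 0.082), or 1.63-fold. The GDC difference was -0.21 (95% interval -0.39 to -0.023, adjusted p = 0.0681), and 13 of 19 alternative fits put it past the threshold. TET2 lies on chromosome 4 at 105145875 to 105279816.

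TET3 had the highest level of the TET genes per kilobase of exon and the least certain changes. Its libraries ranged from 78.3 to 91.3 CPM in DMSO, 68.1 to 84.2 CPM in GDC, 62.9 to 81.1 CPM in GSK and 73.0 to 88.0 CPM in COMBO, and every arm overlapped with DMSO. The GSK difference of -0.20 was barely past the threshold (adjusted p = 0.0495, SE 0.092) and was lost in 5 of 19 alternative fits, among them that with library totals (-0.051, adjusted p = 0.619). The differences in GDC (-0.13, adjusted p = 0.269) and COMBO (-0.018, 95% interval -0.20 to 0.17, adjusted p = 0.853) missed it. TET3 lies on chromosome 2 at 73984910 to 74108176.

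Counted together, 1 of the 9 genes was called higher and 4 lower in GDC, when 20.0% of all tested genes were called in each direction. In GSK, 2 were called higher and 7 lower, against 40.0% and 35.7% of all genes. In COMBO, 2 were called higher (DNMT3A and TET2) and 5 lower, against 43.3% and 39.2%. The median log2 fold change of the 9 genes was -0.21, -0.53 and -0.47 in GDC, GSK and COMBO, and that of all tested genes 0.016, 0.058 and 0.054. Library totals in place of TMM moved the median of all genes to 0.21 for GSK, to 0.26 for COMBO and, from 0.018, to 0.19 when COMBO was compared with GDC, and moved the share of higher calls among all calls from 52.8% to 64.0%, from 52.5% to 63.3% and from 49.9% to 62.8%. With library totals the 9 genes gave 2 higher and 6 lower in GSK, and 3 higher and 5 lower in COMBO. For GDC the share of higher calls among all calls was 49.98%, and it became 38.75% with DESeq2 and 35.9% with no filter.

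**Figure D2:**
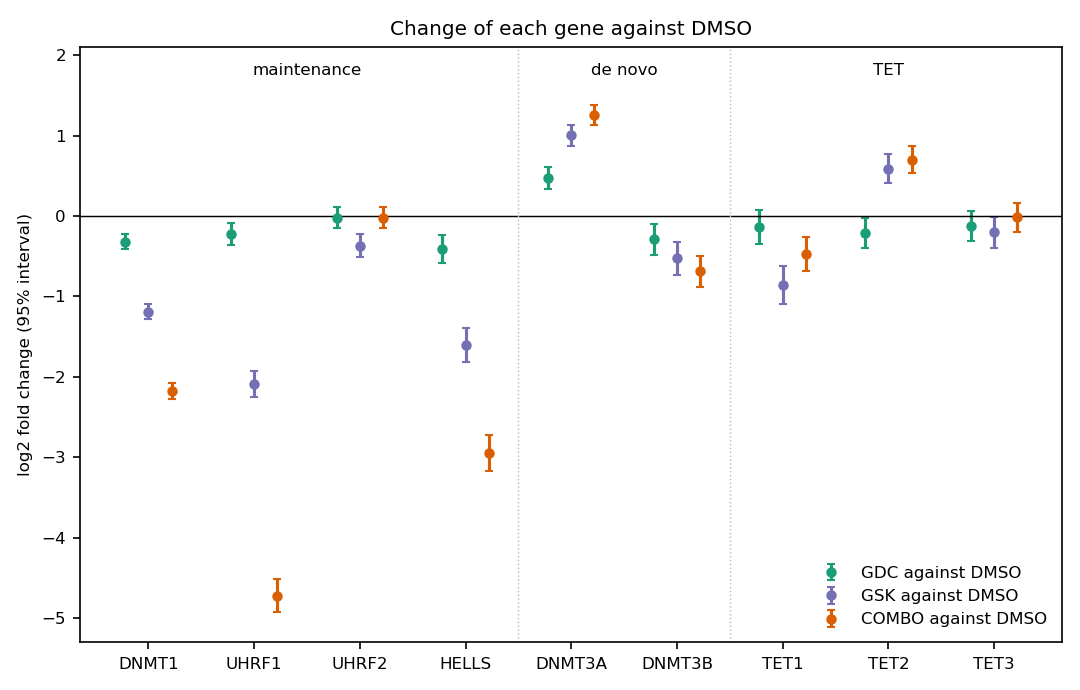
Log2 fold change against DMSO (y axis, points, with 95% intervals) of the 9 genes in GDC, GSK and COMBO, grouped by role along the x axis. UHRF1 reaches -4.72 in COMBO, DNMT3A and TET2 lie above 0 in GSK and COMBO, and the intervals of UHRF2 and TET3 in COMBO cross 0.

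To ask what each agent added to the other, COMBO was compared with the single agents. Against GDC, 2 genes were called higher (DNMT3A and TET2) and 5 lower, when 37.9% and 38.0% of all genes were. With library totals the split was 4 higher and 4 lower, UHRF2 and TET3 being added as higher and TET1 lost. On the log2 scale the difference of UHRF1 was -4.499 (adjusted p = 3.93e-18, SE 0.103), that of HELLS -2.54 and that of DNMT1 -1.85. Since that comparison is also 1 between cells with and without the 6 days of pretreatment, the agent and its length cannot be told apart. TET1 differed from GDC by -0.34 (adjusted p = 0.00706), a call that was lost with library totals (-0.17, adjusted p = 0.161) and without GDC C (-0.26, adjusted p = 0.0592).

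Against GSK, where GDC-0941 is the only difference, 3 genes were called higher and 3 lower, when 19.0% and 26.9% of all genes were. With library totals the share of higher calls among all calls moved from 41.4% to 52.3%. UHRF1 fell by 2.63 (adjusted p = 3.18e-12, SE 0.129), a 6.19-fold lower level, HELLS fell by 1.34 (adjusted p = 9.01e-08, SE 0.133) and DNMT1 fell by 0.98 (adjusted p = 2.50e-12, SE 0.047). DNMT3A was 0.25 higher (adjusted p = 0.00148). TET1 was 0.39 higher (adjusted p = 0.0127, SE 0.120) and UHRF2 0.35 higher (adjusted p = 0.000301, SE 0.068), so both stood nearer to the DMSO level in COMBO than in GSK. DNMT3B, TET2 and TET3 gave -0.16 (95% interval -0.38 to 0.057), 0.11 (-0.060 to 0.29) and 0.19 (-0.0049 to 0.38), none of them past the threshold.

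The departure of COMBO from the sum of both single-agent changes was tested as an interaction contrast on the log2 scale, the effect of GDC-0941 in the presence of GSK126 minus its effect in the absence of it. UHRF1 changed by -2.31 in the sum and by -4.72 in COMBO, a departure of -2.41 (adjusted p = 8.15e-10, SE 0.146), and only 11 of all tested genes had a more negative one. HELLS departed by -0.93 (adjusted p = 0.000252, SE 0.158), from a sum of -2.02 to -2.95. DNMT1 departed by -0.66 (adjusted p = 3.62e-07, SE 0.064), from -1.51 to -2.17. TET1 departed upward by 0.52 (adjusted p = 0.0222, SE 0.157), from -0.99 to -0.47, and UHRF2 upward by 0.37 (adjusted p = 0.00727, SE 0.093), from -0.39 to -0.022. Thus 2 genes were called higher and 3 lower, when 4.86% and 16.5% of all genes were. The number called higher was 4 with DESeq2, with no filter, with a filter at a mean of 1 CPM and with the replicate block, TET2 and TET3 being added. The share of higher calls among all calls was 22.7%, and it was 35.2% with DESeq2 size factors, 33.4% with DESeq2, 40.7% with the filter at a mean of 1 CPM and 55.4% with no filter. It lay between 36.4% and 43.7% when any of DMSO A, DMSO B, DMSO C, GDC A, GDC B, GDC C, GSK A, GSK B or COMBO A was left out, and was highest without COMBO A. DNMT3A (-0.22, adjusted p = 0.0810) and DNMT3B (0.12, adjusted p = 0.577) missed the threshold, and so did TET2 (0.32, adjusted p = 0.0653) and TET3 (0.32, adjusted p = 0.0861), which each passed it in 9 of 18 alternative fits.

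**Figure D3:**
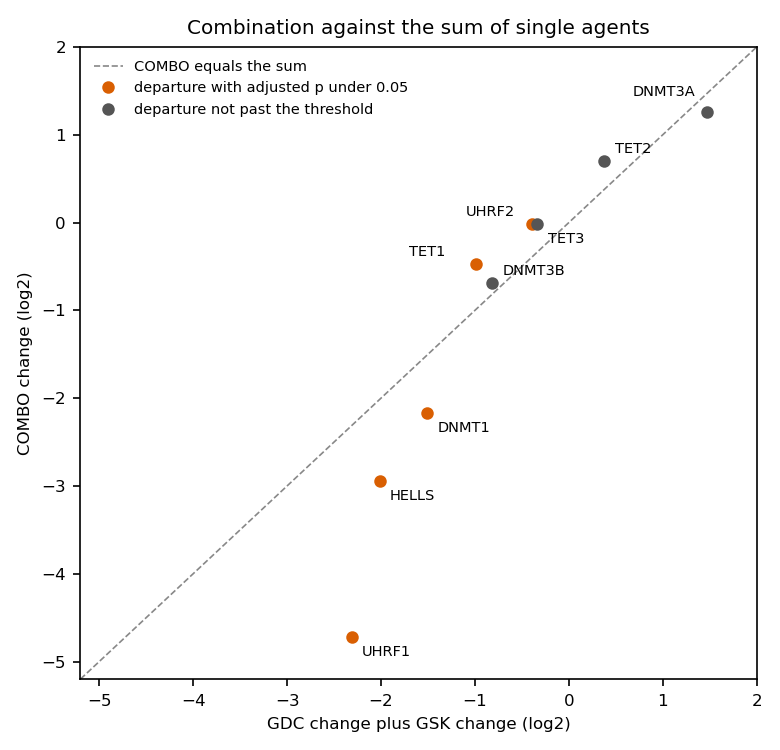
COMBO change against DMSO (y axis, log2) plotted against the sum of the GDC and GSK changes (x axis, log2) for the 9 genes, with a dashed line where both are equal. UHRF1, HELLS and DNMT1 lie below the line, UHRF2 and TET1 above it, and these 5 departures had an adjusted p under 0.05. All 3 contrasts share the DMSO libraries.

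Replication genes were followed beside the maintenance genes, using a list of 41 genes of S phase that held none of the 9. All 41 were tested. None was called higher in any comparison, and 35 fell in GDC, 41 in GSK and 41 in COMBO. Of all tested genes, 20.0%, 35.7% and 39.2% were called lower in these arms. The medians of the list were -0.29, -1.36 and -2.62 on the log2 scale, where all tested genes had 0.016, 0.058 and 0.054. The mean log2 CPM of the 41 genes was 6.66 to 6.68 in the DMSO libraries, 6.33 to 6.43 in GDC, 5.21 to 5.34 in GSK and 3.96 to 4.09 in COMBO. In COMBO only MCM10 (-5.15), a replication factor, and CLSPN (-4.79), a mediator of the replication checkpoint, fell more than UHRF1. HELLS had 13 of the 41 below it, DNMT1 had 28 and DNMT3B had 40. In GDC the order was different, and 28 of 41 had a lower log2 fold change than UHRF1. In the interaction contrast 33 of the 41 were called lower, when 16.5% of all tested genes were. Their median departure was -0.9985, and that of all tested genes -0.0627. The S-phase genes moved with UHRF1, HELLS and DNMT1, and their part in the change of UHRF1, HELLS and DNMT1 was not tested. UHRF2 did not follow them, at -0.022 in GDC, -0.37 in GSK and -0.022 in COMBO. Fewer cells in S phase and less of each transcript per cell cannot be told apart in bulk RNA.

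**Figure D4:**
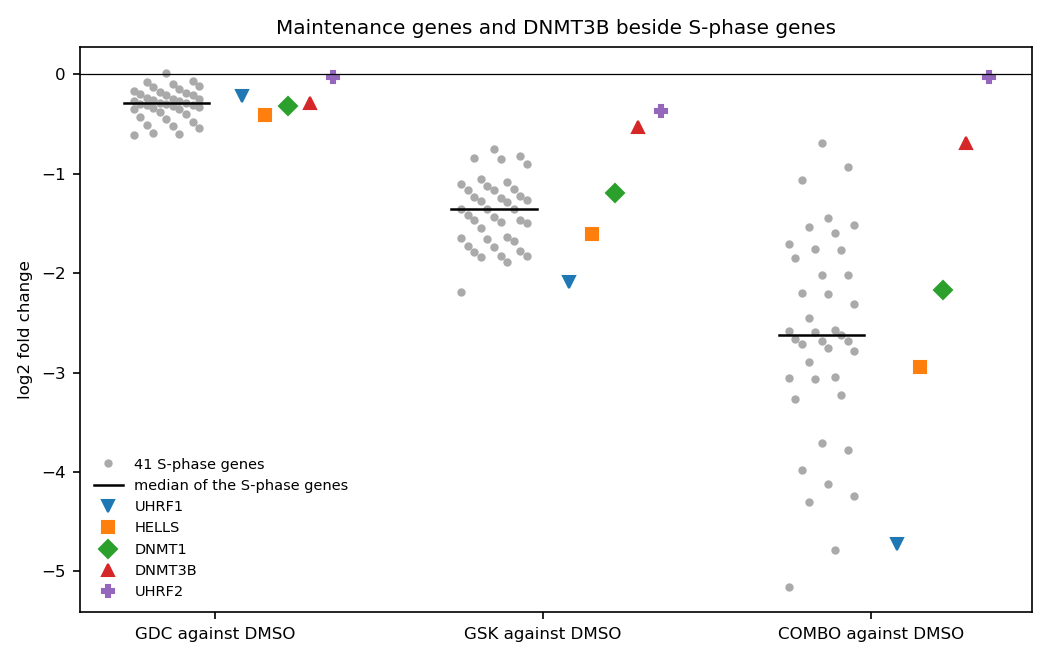
Log2 fold change against DMSO (y axis) of the 41 S-phase genes (gray points, spread sideways for visibility, with their median as a line) and of UHRF1, HELLS, DNMT1, DNMT3B and UHRF2 (colored symbols) in each inhibitor arm. UHRF1 sits near the lower end of the S-phase genes in GSK and COMBO, HELLS and DNMT1 among them, and UHRF2 near their upper end or above it. DNMT3B is at their median in GDC and near their upper end or above it in GSK and COMBO.

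The partners, readers and substrate enzymes of the same pathway were read from a list of 46 genes, of which 41 were tested. In COMBO 24 fell and 12 rose, with a median of -0.27 (0.054 over all tested genes, of which 43.3% were called higher and 39.2% lower) and a range of -3.25 to 2.41, and in GSK 24 fell and 9 rose, when 35.7% of all genes were called lower and 40.0% higher. In GDC 12 fell and 6 rose, when 20.0% of all genes were called in each direction. The largest decreases in COMBO were those of CDCA7, the activator of HELLS, at -3.25 (adjusted p = 5.80e-16, SE 0.112), PCNA, the sliding clamp that tethers DNMT1 to the fork, at -2.95 (adjusted p = 1.18e-18, SE 0.067), and SUV39H1, a histone H3 lysine 9 methyltransferase, at -2.34 (adjusted p = 5.22e-16, SE 0.080). CDCA7 averaged 36.6 CPM in DMSO and 3.79 CPM in COMBO, and thus moved with the remodeler it activates. The decreases of CDCA7, PCNA and SUV39H1 lay within the range of the 41 S-phase genes in COMBO (-5.15 to -0.69, median -2.62). The largest increases were those of the DNA glycosylase NEIL1 at 2.41 (adjusted p = 3.86e-11, SE 0.166), of GADD45G, linked to repair-based demethylation, at 1.61 (adjusted p = 7.05e-13, SE 0.087), and of the methyl-CpG reader ZBTB4 at 0.95 (adjusted p = 1.60e-11, SE 0.062). TDG, the glycosylase that removes the oxidation products of the TET enzymes, was at -1.40 (adjusted p = 7.17e-16, SE 0.049), and USP7, the deubiquitinase that stabilizes UHRF1 and DNMT1, at -0.84 (adjusted p = 2.37e-12, SE 0.049). Both were named after their values were seen. With library totals the list gave 16 higher and 20 lower in COMBO.

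Ratios within a library do not depend on scaling between libraries and show the change in makeup. Averaged on the log2 scale, the UHRF2 to UHRF1 ratio was 0.522 for DMSO, 0.596 for GDC, 1.69 for GSK and 13.5 for COMBO. Its log2 difference from DMSO was 0.19, 1.70 and 4.69. The DNMT3A to DNMT3B ratio was 1.11, 1.89, 3.24 and 4.30 in the same order of arms, and the DNMT3A to DNMT1 ratio was 0.0629, 0.109, 0.286 and 0.677. The TET2 to TET1 ratio was 3.09 for DMSO, 2.94 for GDC, 8.34 for GSK and 6.96 for COMBO. The TET3 to TET1 ratio was 6.37, 6.40, 9.97 and 8.72. All these are means on the log2 scale of CPM ratios with a prior count of 2, and they include the difference in gene length. In 13 of the 15 comparisons with DMSO the libraries did not overlap, with a two-sided exact permutation p of 0.1, the smallest that 3 libraries against 3 allow, and an adjusted value of 0.115 over 15 tests. The remaining 2 were the TET ratios in GDC (p = 0.2 and p = 1, exact permutation test). No ratio could therefore reach 0.05, and how often other gene pairs separate in this way was not examined.

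**Figure D5:**
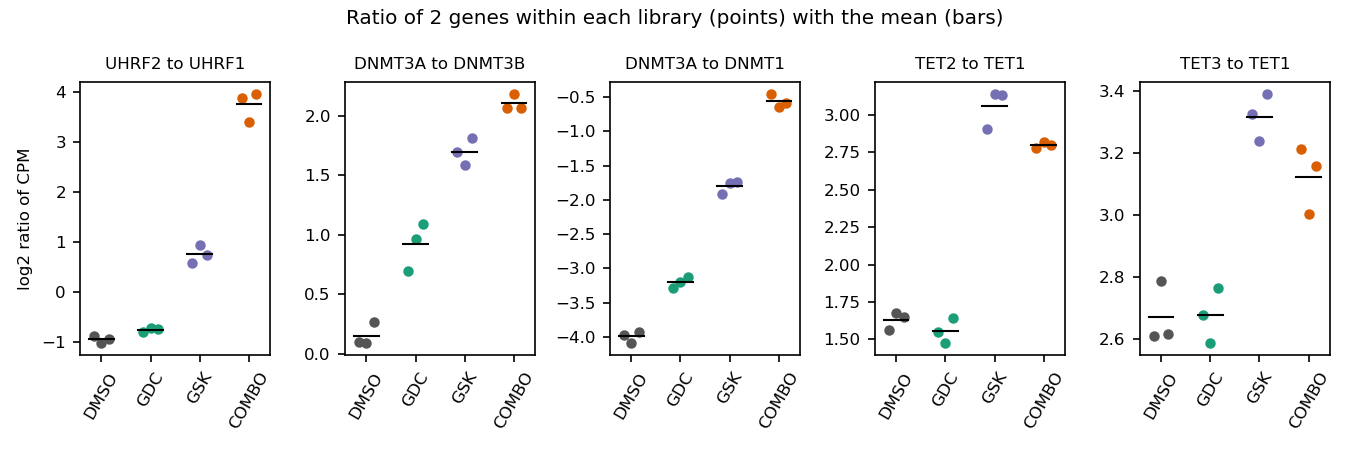
Log2 ratio of the CPM of 2 genes within each library (points, a separate y scale in each panel) with the arm mean (line). UHRF2 to UHRF1 moves from about -0.94 in DMSO to 3.75 in COMBO, both DNMT3A ratios step up through the 4 arms, and both TET ratios are highest in GSK.

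Levels of different genes were compared per kilobase, using the union of the exons in GENCODE 44, which need not be the annotation used for counting. In DMSO the order was DNMT1 (22.4 CPM per kb), UHRF1 (12.8), TET3 (6.42), UHRF2 (3.45), DNMT3B (2.82), TET2 (2.45), HELLS (2.20), DNMT3A (1.56) and TET1 (1.35), in which DNMT3B and TET2 overlapped, as did TET2 and HELLS, and DNMT3A and TET1. In COMBO it was TET3 (6.31 CPM per kb), DNMT1 (4.96), TET2 (3.95), DNMT3A (3.74), UHRF2 (3.38), DNMT3B (1.73), TET1 (0.961), UHRF1 (0.468) and HELLS (0.284), in which only TET2 and DNMT3A overlapped. UHRF1 thus moved from second to eighth of the 9. With the length of the longest transcript instead, DNMT1 stayed first in all 4 arms (48.1 CPM per kb in DMSO and 10.7 in COMBO), and UHRF1 was last in COMBO at 0.558, below HELLS at 0.727.

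Across the 12 libraries the log2 CPM of UHRF1 followed that of DNMT1 (Pearson r = 0.99) and HELLS (0.99) and ran against DNMT3A (-0.90) and TET2 (-0.86). These values describe 4 arms more than 12 independent points, since after the arm means were removed the same pairs gave 0.56, 0.20, -0.26 and -0.071. Among 11292 genes with a mean log2 CPM of at least 2, the patterns most like UHRF1 were those of DTL, RFC2 and TIMELESS, most like DNMT1 those of CSTF2, PPIF and STIL (all r of at least 0.997). DNMT3A was most like DENND3, SLC24A1 and PSCA (r of at least 0.995), and DNMT3B most like PRPF3, ARIH2 and CDK5RAP1 (0.96 to 0.98). TET1 was most like OTUD4, WHSC1L1 and KLHDC5 (0.97 to 0.99), TET2 most like ARHGAP32, KIAA0232 and DHRS3 (0.98 each), and TET3 most like GOLGA4, KIF1B and C10orf12 (0.92 to 0.93).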

How the data were processed

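PolyA RNA-seq of 12 C4.2B libraries (4 arms, n = 3) was analysed. The authors aligned reads to hg38 with STAR and made the deposited count values with HTSeq, as whole reads per gene symbol without normalization. Versions, annotation and strand setting are not given in the sources used here. A deposited normalized table was not used. Some luminal markers are not reported here. The 5 summary lines of each file (23.7% to 33.7% of reads) were left out.

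Genes kept by filterByExpr were tested with the quasi-likelihood F-test of edgeR 4.0.16 (R 4.3.3, TMM scaling) in 1 fit of all libraries, with 1 coefficient per arm and no covariate. Tests were two-sided, and calls had a Benjamini-Hochberg adjusted p under 0.05 over all 14189 genes. SE values follow from the F statistic. Ratios per library used log2 CPM with a prior count of 2. Arms were taken from the labels. Replicates differed by more than sampling noise (chi-square per degree of freedom 1.76 to 6.18), so each library counted as 1 sample. Floors cover counting error only. The method was tested on simulated counts in which a small share of genes changed, in both directions and in COMBO alone. That test does not bear on the choice of scaling.

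Genes, lists and motifs were chosen with earlier results of these data known. All 9 genes were named, with the 3 largest called changes in each direction of the partner list in COMBO, 2 of the S-phase list, silenced-list genes with at least 10 counts in some library, and the 3 most similar genes. Alternatives were DESeq2 1.42.0, its size factors within the edgeR test, scaling by library totals alone, omission of the filter, a filter at a mean of 1 CPM, a replicate block, the compared arms only, omission of each library, a prior count of 0.25 and the longest transcript.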

Additional observations from a re-analysis of the deposited data

Results flagged for a closer look

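For 5 of the 9 genes (2 higher and 3 lower) the test of the interaction passed the threshold, so that COMBO differed from both agents' changes added together. Of all tested genes, 4.86% were called higher and 16.5% lower. With DESeq2 the count was 7 of the 9 genes. On the log2 scale the departure was -2.41 for UHRF1, -0.93 for HELLS, -0.66 for DNMT1, 0.52 for TET1 and 0.37 for UHRF2. Stated otherwise, the UHRF1 difference between cells with and without GDC-0941 was -0.22 in the absence of GSK126 and -2.63 in its presence, and that of UHRF2 was -0.022 and 0.35. Of the 41 S-phase genes, 33 were called lower in the same contrast and 0 higher, with a median of -0.9985. A more negative departure than that of UHRF1 was found for 1 of the 41. For HELLS that number was 21 of 41 and for DNMT1 25 of 41. Arms of 3 libraries were not searched for outlying samples.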

How the results depend on the processing

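Counts of called genes in both directions together stayed within 1.5 times those reported in every alternative, for the 9 genes in all 6 comparisons and for the partner and S-phase lists in COMBO. By direction, the genes called higher went from 2 to 4 in COMBO against GDC with library totals and from 3 to 5 in COMBO against GSK without GSK C. In the interaction they went from 2 to 4 in several alternatives, including without DMSO B, without GDC C and without GSK C. No call of DNMT1, UHRF1, HELLS or DNMT3A against DMSO was lost or gained. UHRF2 changed sign with library totals, to 0.19 in COMBO against DMSO and 0.17 in COMBO against GDC (adjusted p = 0.0206). TET3 against DMSO in GSK lost its call in 5 of 19 alternatives (values from -0.31 to -0.051), including without DMSO A (adjusted p = 0.0853), without GSK A (0.0529) and without GSK B (0.147). TET3 passed the threshold in 2 of 19 alternatives for GDC, 3 when COMBO was set against GDC and 5 when it was set against GSK, and TET2 in COMBO against GSK without GSK C (0.21, adjusted p = 0.0466). Replicate letters were not taken as pairs, since the deviations of same-letter libraries of different arms from their arm means correlated between -0.44 and 0.59, with 7 of 18 over 0.1, and not every library correlated best with its own letter. The replicate block gave 6 called genes in GDC, 9 in GSK, 7 in COMBO, 7 in COMBO against GDC, 7 in COMBO against GSK and 7 in the interaction, against 5, 9, 7, 7, 6 and 5 without it, the added genes being TET2 and TET3. Of all 14189 tested genes, that block gave 5559, 10736, 11645, 10724, 6426 and 2919 calls in the same order. The TET2 to TET1 log2 ratio difference in COMBO was 1.14 without DMSO A and 1.195 without DMSO B, against 1.17. Levels per kilobase depended on the length used, since the union of exons exceeds the longest transcript for most of the genes. Transcript counts do not measure protein or DNA methylation, which were not analysed here.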

Other observations

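Genes whose promoters are commonly methylated in prostate cancer or in somatic cells were read from a list of 20, of which 11 passed the filter on low counts. In COMBO 3 rose and 6 fell, when 43.3% and 39.2% of all tested genes did. MAGEC2, a cancer-testis gene, rose from 2.27 to 4.67 CPM on average (log2 fold change 1.05, SE 0.162, adjusted p = 5.76e-06), RARB, a retinoic acid receptor, rose by 0.43 (adjusted p = 0.00671, SE 0.136), and APC, a WNT pathway suppressor, rose by 0.27 (adjusted p = 0.00619, SE 0.085). RARB was also called higher in GDC (0.485, adjusted p = 0.00948) but not in GSK (0.16, adjusted p = 0.338). MAGEC2 was called higher in GSK (0.94, adjusted p = 9.08e-05) but not in GDC. APC was called in neither and averaged 89.5 CPM in DMSO. The cancer-testis genes MAGEA1 (-0.83), MAGEA3 (-0.715), MAGEA6 (-0.66) and MAGEA12 (-0.52) fell in COMBO, and MAGEA3 stood at 164 CPM in DMSO. Reads of these near-identical paralogs are uncertain. SYCP3, a meiotic gene, fell by 1.19, and RASSF1, a tumor suppressor, fell by 0.52. TDRD1 (-0.26, adjusted p = 0.307) and CTAG2 (-0.24, adjusted p = 0.404) missed the threshold, and MAGEC1 had too few counts to be tested (19 at most). GSTP1, the detoxifying enzyme whose promoter is often methylated in prostate cancer, had at most 3 counts in any library, within the floor, and is named after its values were seen.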
